A study of Mus musculus with 28 samples.

Results

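The coding regions of long internal exons form a class of m6A regions defined by position alone. The assay, m6A-seq, enriches RNA fragments carrying N6-methyladenosine (m6A) by immunoprecipitation (IP) and reads them as peaks along transcripts. Same-strand peaks sharing at least 1 bp, pooled from the 14 IP libraries, gave 33937 merged regions. A region belonged to the class if its midpoint lay in coding sequence of the same strand, outside 3′UTRs and over 200 nt from a stop codon, in an exon that was neither first nor last in its transcript and was at least 400 nt long. This held for 4005 regions (11.8% of all), in 2768 exons of 2254 genes, and these are called long-exon regions here. They made up 49.1% of the regions placed in coding sequence. For comparison, 915 coding regions lay in internal exons under 400 nt (short-exon regions) and 2144 in the coding part of last exons.

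All mice were F1 hybrids of C57 and PWK, and their cerebellum and cerebrum were taken at birth (P0) or at 7 days (P7). The mother was PWK and the father C57 in F1i, and the reverse held in F1r. Cerebellum gave 2 libraries at P0, both labelled male (1 F1i, 1 F1r), and 4 at P7, and cerebrum gave 4 libraries at each age. In every group of 4, an F1i and an F1r library were present for each labelled sex, which made 7 pairs in all. The labels name polyadenylated RNA of whole tissue, while the methods also describe ribo-depleted RNA without assigning it to samples. The labels do not say whether libraries came from separate animals, so the p-values below measure only the spread between libraries. In whole tissue fewer cells of a type and less RNA per cell cannot be told apart.

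m6A is deposited on nascent RNA by the METTL3/METTL14 methyltransferase complex at DRACH motifs, of which GGAC is a common form. Most internal exons of mammalian genes are short. Exon junction complexes, which are loaded beside splice junctions, are known to keep the methyltransferase from nearby RNA, so that m6A in mature mRNA is mostly found in last exons, around stop codons, and in unusually long internal exons. In the brain such exons are found in genes for large scaffold, cytoskeletal and chromatin proteins.

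Stretches of 30 bases with a motif near the strongest peak summit are shown for some of the regions named below. They run 5′ to 3′ on the transcript strand of GRCm38 (mm10), with the motif in capitals. A GGAC near the summit was marked even where another DRACH lay nearer, as in Aatk. The first set comes from the most enriched long-exon regions found in all 14 libraries. The stretch of Cic lies at chr7:25272995-25273024 (+), that of Syt11 at chr3:88762213-88762242 (-), that of Aatk at chr11:120011830-120011859 (-), that of Extl3 at chr14:65075996-65076025 (-) and that of Kdm6b at chr11:69404980-69405009 (-). All 5 lie inside the exon, and the A of the marked motif was at most 12 nt from the summit. Among the other named regions found in all 14 libraries, St6gal2 had GGAC at 7 nt, Nfe2l1 at 19 nt, and Tro and Lrfn1 at 22 nt. The motif of Cxxc4 was a DRACH other than GGAC.
Cic: tgccccatccagGGACattgggggcctccg
Syt11: tgcatcttgtatGGACcagttacccatcaa
Aatk: tgtgactgaccaGGACaataactctgagga
Extl3: caatggggacctGGACctggggccggtaga
Kdm6b: tctgttcttgagGGACaaaagtactgttac

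The second set comes from regions that differed between tissues or ages. The stretches of Nr3c2 at chr8:76909679-76909708 (+) and Lyst at chr13:13634625-13634654 (+) belong to regions called more often in cerebrum. Those of Irx3 at chr8:91800202-91800231 (-) and Scaf11 at chr15:96420441-96420470 (-) belong to regions called more often in cerebellum. The stretch of Bcl6 at chr16:23973094-23973123 (-), where the marked motif is a DRACH other than GGAC, belongs to a region called only at P0 in cerebrum, and that of Vgll3 at chr16:65839358-65839387 (+) to a region called only at P7. Of regions named below and not shown, 2210408I21Rik, Unc13b, Lnpep, Dnajc1, Plcl1, Il16 and the other Nr3c2 region had a DRACH other than GGAC. Ahctf1 had neither. Mmrn2, Kifc5b, Zfp646, Gm19410 and Serpina3n had GGAC. The stretches shown therefore favour GGAC.
Nr3c2: tcaggaatcttaGGACcacctgtgcccggc
Lyst: agcaggctttggGGACtgctgtaaccagag
Irx3: gacttcggcctgGGACccatttcggactgc
Scaf11: ggaagaaactgtGGACtctgacactccacc
Bcl6: tgaggtcgtggaGAACAatatgccactgag
Vgll3: aactcttggccaGGACatggcctgcatcag

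Peak lists held 16687 to 26208 peaks, and relative depth, estimated from the local background of the peaks and set to a mean of 1 over the libraries, ran from 0.560 to 1.56. All cerebellum libraries formed 1 batch and all cerebrum libraries another in the study's sample sheet, with IP done on pooled barcoded samples, so that tissue and batch cannot be told apart. Of 8 marker genes of cerebrum, all had a peak region in all 8 cerebrum libraries, Emx1 had none in cerebellum, and Bcl11b, Neurod2 and Neurod6 had one in all 6 cerebellum libraries. Of 8 markers of cerebellum, En2 and Pax2 had a region in all 6 cerebellum libraries and in 0 cerebrum libraries, while Zic1 and Zic4 had one in every library of both tissues and Calb1 in none. Of 8 markers of choroid plexus, blood and midbrain, 6 had no region in any library, Ttr had one in 2 cerebellum and 0 cerebrum libraries, and Otx2 had one in 6 and 7. Peaks on Xist, which is transcribed from the inactive X, and on the Y-linked Kdm5d put the labels of sex in doubt in the P7 cerebrum F1r libraries. The library labelled male had 7 Xist peaks and 0 on Kdm5d, against 3 and 1 in the library labelled female. These peaks are a loose guide. The other libraries labelled male had 0 to 2 Xist peaks, and P0 cerebellum male F1r and P7 cerebellum male F1i had 0 on Kdm5d. The cerebellum libraries labelled female had 4 Xist peaks each. The mean difference in share by cross is given with and without these pairs. The other results that use labelled sex are given with them.

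Internal exons carried regions in a length-dependent way, with the step between 300 and 600 nt. Exons were counted in the transcript with the longest coding sequence of each of 8757 genes with a region anywhere. A gene could enter through the region of its long internal exon itself, which can raise the shares of long exons. The part of this in the shares was not tested. Of 31450 internal coding exons of 100 to 149 nt, 0.362% held the midpoint of a region in any library (95% Wilson interval 0.302% to 0.435%). The share was 3.10% for exons of 200 to 299 nt, 21.3% for 300 to 399 nt (19.3% to 23.5%), and 62.0% for 400 to 599 nt (59.2% to 64.6%). It reached 83.1% for 600 to 999 nt, 92.4% for 1000 to 1999 nt and 97.3% of the 262 exons of 2000 nt or more (94.6% to 98.7%). The intervals of neighbouring classes above 200 nt did not overlap. They cover counting error only.

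Length by itself gives an exon more chances to hold a region, so regions were also counted per kb of coding sequence. A library had on average 0.319 ± 0.0926 (SD, n = 14) called regions per kb in exons of 300 to 399 nt and 0.871 ± 0.144 in exons of 400 to 599 nt. The value was 0.968 ± 0.0924 in exons of 600 to 999 nt, 0.830 ± 0.0994 in exons of 1000 to 1999 nt and 0.724 ± 0.153 in exons of 2000 nt or more, so that the mean density was highest at 600 to 999 nt and lower in the longer classes. Exons of 100 to 149 nt had 0.0132 ± 0.00244 regions per kb.

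**Figure D1:**
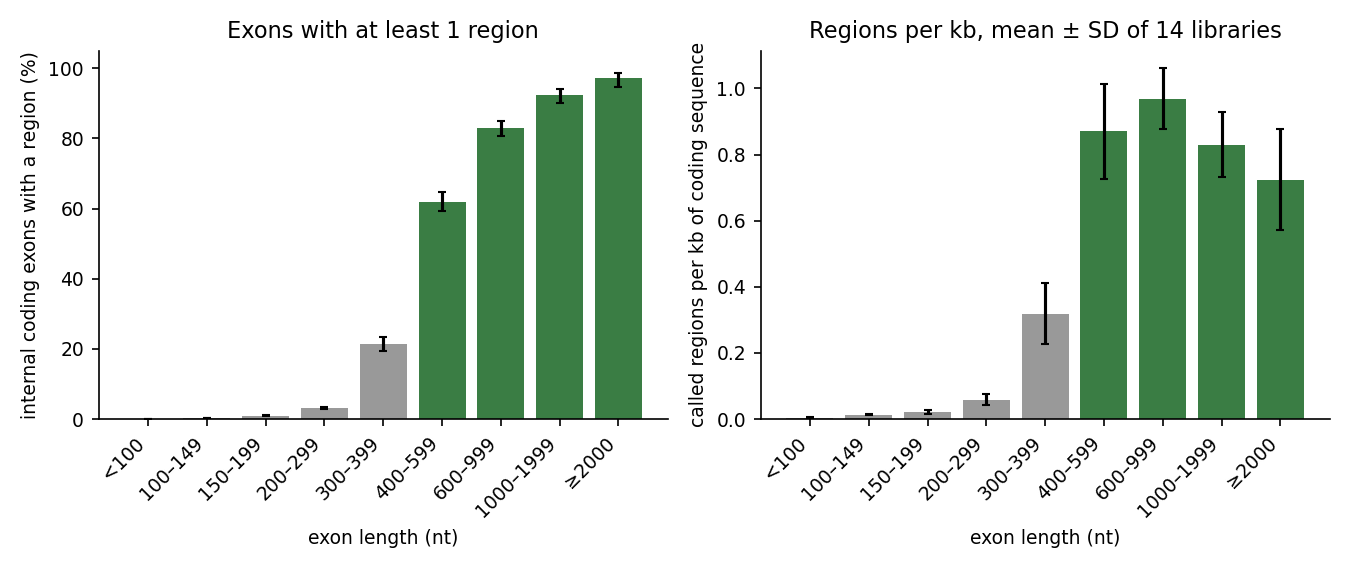
Internal coding exons by length (nt, x axes) in genes with at least 1 region. Left, percentage of exons that held a region midpoint in any library, with 95% Wilson intervals; right, called regions per kb of coding sequence, mean ± SD over 14 libraries. Green bars are exons of at least 400 nt; the percentage rose from 21.3% at 300 to 399 nt to 97.3% at 2000 nt or more, while the density was 0.724 to 0.968 per kb in all green classes.

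Long internal exons held 21.5% of the coding sequence of all internal exons in these genes and 81.1% of the regions placed there. Their content of GGAC was no higher than that of short internal exons, at 5.03 per kb against 5.06 per kb. Over all libraries 24.2 regions were found per 100 GGAC motifs in long internal exons and 1.53 per 100 in short ones. In single libraries the density ran from 0.623 to 1.04 regions per kb in long and from 0.0191 to 0.0493 per kb in short internal exons, without overlap, and the ratio was 25.2 ± 4.18 (SD, n = 14). With the classes divided at 300 nt the ratio was 36.0, and with 600 nt it was 11.3. It was 23.2 ± 3.77 in the 4378 genes that had a 3′UTR or stop codon region in all 14 libraries. Peaks are genomic intervals, and the median width was 158 nt for short-exon regions and 334 nt for long-exon regions, so that a peak over a short spliced exon can be cut at its ends or placed in the intron beside it. The part of this in the ratio was not tested beyond placing regions by their strongest summit, which gave a ratio of 20.7.

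The threshold of 400 nt was set by the rule. The share of exons with a region rose from 21.3% at 300 to 399 nt to 62.0% at 400 to 599 nt. No finer classes of length were made, so the values do not place the step within this range. The long-exon regions in the shortest exons, both of 400 nt, belonged to the potassium channel gene Kcnh7 (0 of 6 cerebellum and 8 of 8 cerebrum libraries) and to Gpr155 (0 of 6 and 7 of 8). The short-exon regions in the longest exons, both of 399 nt, belonged to Pan2, a subunit of a poly(A) nuclease (3 of 6 and 0 of 8), and to Vstm4 (0 of 6 and 1 of 8).

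The exons of long-exon regions had a median length of 1029 nt (quartiles 645 and 1969 nt) and reached 9837 nt in Stard9. The exon was the exon numbered 2 in its transcript for 25.99% of the regions and number 3 for 14.4%. Along the coding sequence, divided into 3 equal parts, 40.9% of midpoints lay in the 5′ part, 40.2% in the middle and 19.0% in the 3′ part, next to 37.6%, 41.8% and 20.5% of the coding bases of long internal exons. The placement along the message ran close to that of the exons themselves. Within the exon, 25.0% of midpoints lay in the 5′ part, 52.9% in the middle and 22.1% in the 3′ part.

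Within their exons, few summits lay near either end. Regions were at least 80 nt wide and were chosen by a midpoint inside the exon, which can itself keep summits from the ends. An even spread over the bases is therefore not a neutral expectation. The test below measures only the difference from that spread, and the part of the rule in it was not tested. In a library 4.53% ± 0.458 (SD, n = 14) of the strongest summits of long-exon regions lay within 100 nt of an exon end, with a range of 3.67% to 5.01%. The coding bases of the same exons within 100 nt of an end made up 20.3% ± 0.248, with a range of 20.1% to 20.9%, and the values did not overlap. The mean difference was -15.8 ± 0.617 percentage points, lower in 14 of 14 libraries (exact sign-flip test over libraries, two-sided, p = 0.000122, the smallest p that 14 libraries allow; adjusted p = 0.000122 over 4 tests of summits).

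The profile was not the same at the 2 ends. In the first 50 nt at the 5′ end lay 0.0303% ± 0.0377 of summits, against 4.51% of bases, and in the last 50 nt at the 3′ end 0.589% ± 0.140 against 5.47%. Between 50 and 99 nt the shares were 2.51% ± 0.504 at the 5′ end and 1.402% ± 0.269 at the 3′ end. The summits exceeded the bases most between 200 and 249 nt from the 5′ end, by a ratio of 1.60, and between 250 and 299 nt from the 3′ end, by 1.71. The regions themselves were wider than these bins, with a median of 334 nt. Read coverage near exon ends in the inputs was not analysed here, and its part in the profile was not tested.

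**Figure D2:**
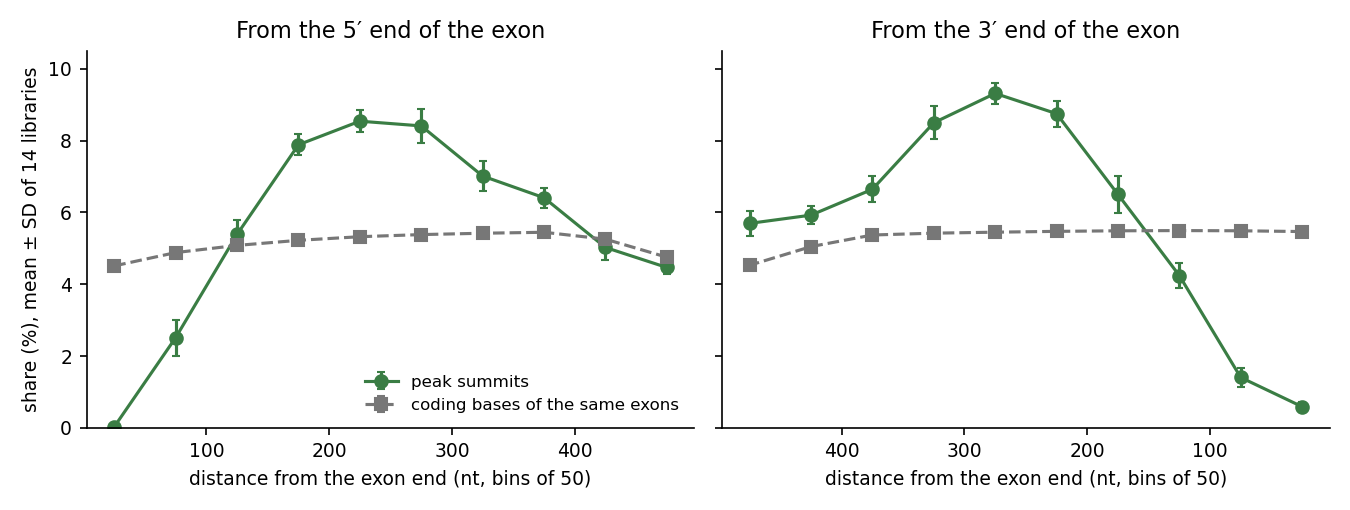
Distance of peak summits of long-exon regions from the 5′ end (left) and the 3′ end (right, axis reversed) of their exon, in nt and bins of 50. Green points are the share of summits and grey squares the share of coding bases of the same exons, both as mean ± SD of 14 libraries; summits fall below bases in the 100 nt next to either end and exceed them between 150 and 400 nt.

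Summits of long-exon regions lay close to GGAC. The A of a GGAC was found within 25 nt of the summit for 51.5% ± 3.96 (SD, n = 14) of long-exon regions of a library, with a range of 46.1% to 58.6%. In windows of the same size 300 nt to either side the share was 17.8% ± 0.780, with a range of 16.8% to 19.3%. The difference of 33.7 ± 3.28 percentage points was above 0 in 14 of 14 libraries (exact sign-flip test over libraries, two-sided, p = 0.000122, adjusted p = 0.000122). With the coding bases of the same exon as background it was 27.6 points. At summits of short-exon regions the share was 41.0% ± 1.96, which was 10.4 ± 3.97 points below that of long-exon regions and lower in 14 of 14 libraries (same exact test, p = 0.000122, adjusted p = 0.000122). This difference depended on the exon length that divides the classes, with 15.8 points at 300 nt and 3.06 points at 600 nt (same exact test, p = 0.00122 at 600 nt).

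The share with GGAC differed between the tissues. It was 53.7% to 58.6% with a median of 55.2% in the 6 cerebellum libraries, and 46.1% to 50.1% with a median of 48.4% in the 8 cerebrum libraries, so that the tissues did not overlap. For the 1643 long-exon regions called in every library the ranges were 58.2% to 60.01% in cerebellum and 53.7% to 56.3% in cerebrum, which did not overlap either. At short-exon summits they did overlap, at 37.5% to 45.9% and 39.01% to 42.5%. These differences were not tested.

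Long-exon regions were enriched more strongly than short-exon regions in every library. The authors' fold enrichment of the strongest peak, the IP pileup at the summit over the local background, had a median of 8.56 to 9.86 over the long-exon regions of a cerebellum library and of 5.47 to 6.78 over its short-exon regions. In cerebrum libraries the medians were 12.7 to 15.2 and 8.11 to 8.67. On the log2 scale the medians differed by 0.64 ± 0.14 (SD, n = 14), a ratio of 1.56, with the same direction in 14 of 14 libraries (exact sign-flip test over libraries, two-sided, p = 0.000122, adjusted p = 0.000122). Regions in the coding part of last exons had higher medians than long-exon regions, at 11.99 to 14.2 in cerebellum and 17.0 to 20.7 in cerebrum. Regions of 3′UTRs and stop codons had medians of 9.13 to 10.9 and 12.499 to 13.5. Fold enrichment was tested only within a library, because each list was called on its own, and fold values of different libraries are set side by side below as descriptions.

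**Figure D3:**
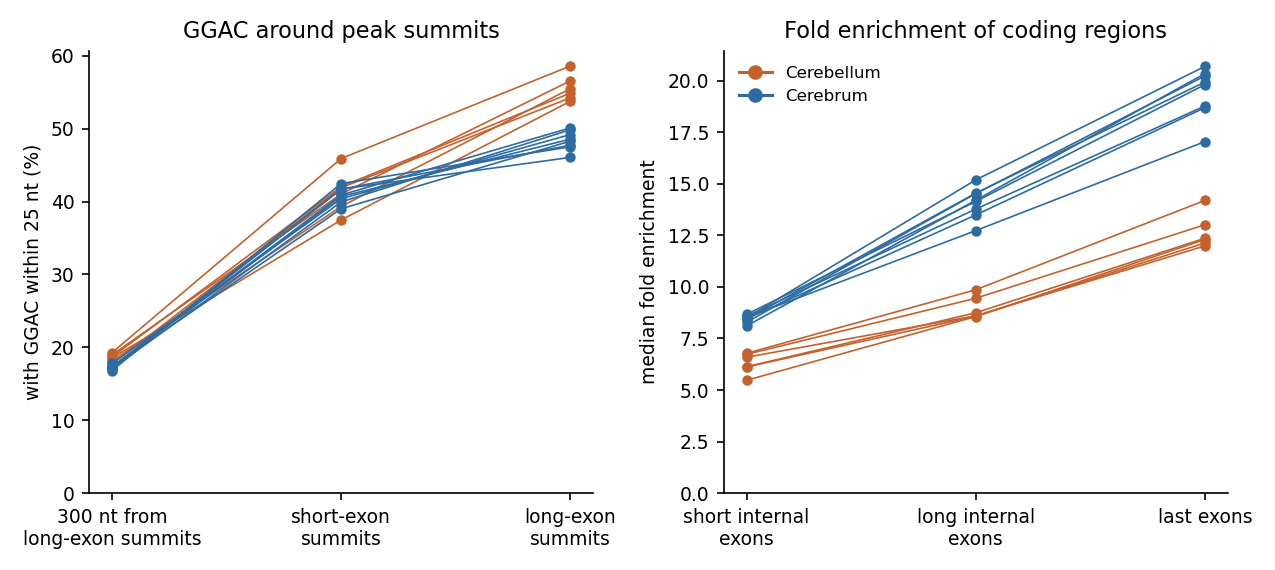
Left, percentage of summits with the A of a GGAC within 25 nt, for windows 300 nt from long-exon summits, short-exon summits and long-exon summits; right, median fold enrichment of coding regions in short internal, long internal and last exons. Each line is 1 library, orange for cerebellum and blue for cerebrum; in all 14 lines the long-exon value lies above the short-exon value, at 46.1% to 58.6% against 37.5% to 45.9% for GGAC.

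Long-exon regions recurred across libraries. Of the 4005, 1643 (41.0%, 95% Wilson interval 39.5% to 42.6%) were called in all 14 libraries, compared with 27.2% of all regions, 11.4% of short-exon regions (9.47% to 13.6%), 52.4% of coding regions in last exons (50.3% to 54.5%) and 42.6% of 3′UTR and stop codon regions. Only 300 (7.49%) were called in a single library, against 18.8% of short-exon regions. The share called in all 14 fell to 16.3% when the peaks of a library had to cover at least 50% of a region, and without the P7 cerebellum female F1i library, which had the fewest long-exon regions, it was 44.9%. The recurrent regions were wide, with a median of 533 nt against 94 nt for those of a single library, and 56.6% against 39.7% had GGAC at the strongest summit. By exon length, 33.9% of the regions in exons of 400 to 599 nt, 50.5% at 600 to 999 nt, 43.8% at 1000 to 1999 nt and 32.9% at 2000 nt or more were called in all 14.

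The 10 regions of this set with the highest mean percentile of fold enrichment inside the lists lay in genes of several kinds. Cic encodes a transcriptional repressor with an HMG box, Nfe2l1 a bZIP transcription factor, and Kdm6b a demethylase of histone H3 lysine 27. Syt11 (a synaptotagmin), Lrfn1 (a synaptic adhesion protein) and Aatk (a kinase) act in neurons, Cxxc4 encodes an inhibitor of Wnt signalling, St6gal2 and Extl3 are glycosyltransferases, and Tro encodes trophinin. The Cic region (chr7:25272707-25273517, exon 2 of 21, 2799 nt) had a fold enrichment of 39.2 at the lowest, 43.9 at the median and 53.7 at the highest over 6 cerebellum libraries. In the 8 cerebrum libraries it was 125, 167 and 186. The Cic values of the tissues did not overlap, and its mean rank was at percentile 99.5 of the lists. In the Aatk region (exon 11 of 14, 2593 nt) the values were 46.8, 59.0 and 69.8 in cerebellum and 80.1, 85.3 and 94.8 in cerebrum. The Kdm6b region (exon 11 of 23, 2168 nt) had 33.0, 35.0 and 45.02 in cerebellum and 70.5, 82.3 and 100.4 in cerebrum.

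In all 10 the lowest cerebrum value was above the highest cerebellum value. This ran with the level of the whole class, for which the median fold over the 1643 recurrent regions was 10.6 to 11.8 in cerebellum and 18.3 to 25.4 in cerebrum libraries. The medians of the 10 were 35.0 to 59.0 in cerebellum and 82.3 to 167 in cerebrum. The strongest summit of the Nfe2l1 region lay outside the exon of its midpoint, in a region of 1532 nt that ran past the exon, so its stretch of sequence is not shown.

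Most long exons held a single region, and a few held many. Of the 2768 exons, 2078 (75.1%) had 1 region, 421 had 2, 207 had 3 or 4 and 62 (2.24%) had 5 or more. The exon with most was exon 12 of Spen, an RNA-binding transcriptional repressor, with 13 regions in 8020 nt. Exon 22 of Stard9 had 11 in 9837 nt, exon 10 of Unc13b had 10 in 8367 nt, exon 5 of Map1a had 10 in 8104 nt, exon 10 of Bod1l had 9 in 5953 nt and exon 10 of Zfhx4 had 9 in 5403 nt. These exons held 1.12 to 1.67 regions per kb. Shorter exons of Zfp407 (4720 nt) and Resf1 (4380 nt) also had 9 each, at 1.91 and 2.05 per kb.

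The exons with many regions differed in how constant the regions were. In Map1a, which encodes a microtubule-associated protein of mature neurons, all 10 regions were called in all 14 libraries. Their median fold ran from 3.98 to 19.7 in cerebellum and from 8.24 to 43.3 in cerebrum, so that the regions of this exon differed in enrichment while their presence did not. In Spen 6 of 13 regions were called in all libraries, with 9 to 12 of them present in a cerebellum and 6 to 12 in a cerebrum library. In Unc13b, a priming factor of synaptic vesicles, 0 of 10 were. A cerebellum library held 0 or 1 of these 10 regions and a cerebrum library 2 to 9, and 9 of the 10 were never called in cerebellum. In the zinc finger and homeodomain gene Zfhx4, 0 of 9 were called in all libraries, and a library held 1 to 9 of them.

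The comparison of tissues asks where long-exon regions are shared and where they are not. A cerebrum library had 2787 to 3418 long-exon regions with a median of 3064, and a cerebellum library 2055 to 2652 with a median of 2460.5. The ranges did not overlap, and the means differed by 629 (exact permutation of library labels, two-sided, p = 0.000333, which is the minimum; adjusted p = 0.00200 over 6 tests). Lists were longer in cerebrum. With lists cut to equal size the difference was 309 (p = 0.000333 in the same exact test), and with 50% coverage of the region it was 959 (p = 0.000666). In 6 pairs of libraries matched by age, labelled sex and cross it was 542 ± 261 (SD), higher in cerebrum in 6 of 6 (exact sign-flip test, p = 0.0313, the smallest that 6 pairs allow).

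As a share of all regions of a library, long-exon regions made up 14.6% to 17.1% in cerebellum and 14.2% to 17.2% in cerebrum, which overlapped, with a difference of -0.495 percentage points (exact permutation test, p = 0.382, adjusted p = 0.458). The sign depended on the denominator. Of the regions in annotated exons, long-exon regions were 18.5% ± 1.01 in cerebellum (SD over 6 libraries) and 19.6% ± 0.396 in cerebrum (SD over 8), 1.16 points higher (exact permutation test, p = 0.00266). With lists of equal size the difference was also 1.16 points (exact permutation test, p = 0.00133). Introns took 3.90% to 5.86% of the regions of a cerebellum library and 6.90% to 15.8% of those of a cerebrum library.

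Region by region, 2362 long-exon regions were called in some but not all libraries and could be tested. Of these, 336 (14.2%) were called more often in cerebrum and 37 (1.57%) more often in cerebellum (Fisher's exact test, two-sided, with a Benjamini-Hochberg threshold of 0.05 over all regions tested). Over all 24722 regions tested the shares were 7.78% and 1.87%, and over the 811 short-exon regions tested 10.9% and 4.81%. Without adjustment 647 long-exon regions had a p below 0.05. All 336 were also more frequent in cerebrum among the P7 libraries alone, as were all 37 in cerebellum. Any pattern of calls that passed the threshold forces this direction at P7, so it is no separate check. Of the 336, 182 were called in all 8 cerebrum and in 0 cerebellum libraries. The number of calls fell whichever cerebellum library was left out. With fewer cerebellum libraries the same kind of pattern has a larger p, so the fall by itself shows no dependence on particular libraries. Leaving out 1 cerebellum library gave 202 to 248 calls in place of 373, with P0 replicates 1 and 2 at 211 and 248 and P7 replicates 1 to 4 at 202, 208, 202 and 205. With lists of equal size 229 regions were higher in cerebrum and 72 in cerebellum.

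**Figure D4:**
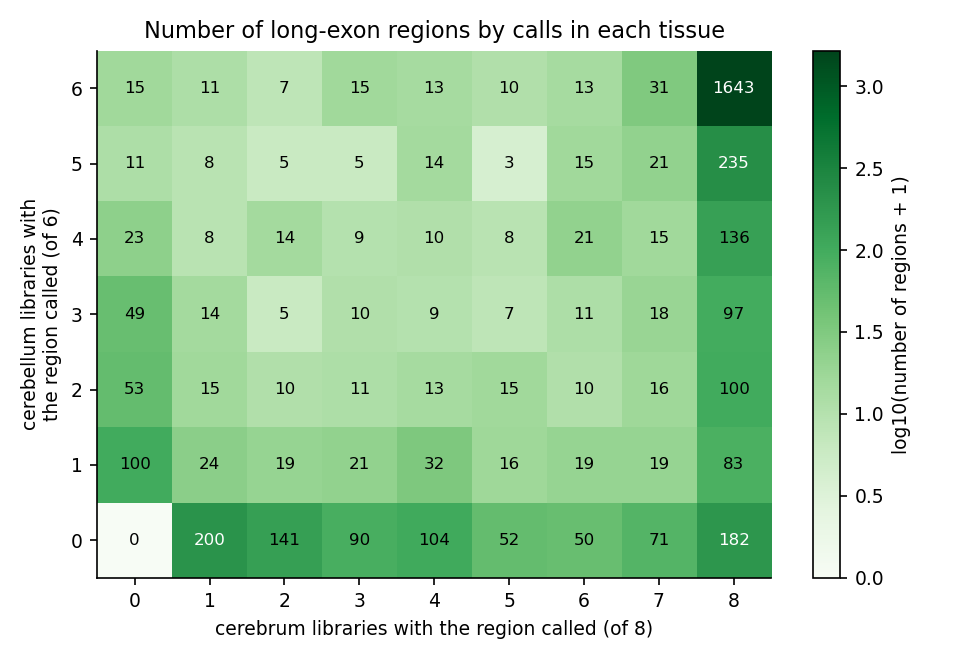
Number of long-exon regions by the number of cerebrum libraries (x axis, of 8) and cerebellum libraries (y axis, of 6) in which they were called. Shading is log10 of the number plus 1; 1643 regions sit in the corner called in all 14 libraries, 182 in all cerebrum and no cerebellum library, and 15 in all cerebellum and no cerebrum library.

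The long-exon regions called more often in cerebrum lay in 244 genes, and for most of these regions another region of the gene was called in cerebellum. The counts are of regions, so a gene with many regions counts more than once. No such share over all long-exon regions is given beside them. For 211 of the 336 regions (62.8%) another region of the same gene was called in all 6 cerebellum libraries, and for 45 (13.4%) no other region of the gene was called in any cerebellum library. For the 37 regions called more often in cerebellum, in 36 genes, another region was called in all 8 cerebrum libraries for 22 and none in any for 10. GGAC was found at the strongest summit of 33.0% of the 336 and 43.2% of the 37, against 48.0% of all long-exon regions. The last value includes the 1643 regions called in all libraries, at 56.6%, which could not be among the 336 or the 37. It is therefore higher than a background of the regions tested. Of the regions tested in exons of 2000 nt or more, 17.5% were higher in cerebrum and 0.460% in cerebellum, and in exons of 400 to 599 nt 12.7% and 1.85%.

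The regions higher in cerebrum with the strongest enrichment there included both regions of Nr3c2, which encodes the mineralocorticoid receptor. The Nr3c2 region at chr8:76909570-76909901, in exon 2 of 9, was called in 8 of 8 cerebrum and 0 of 6 cerebellum libraries, with a fold enrichment of 36.3 at the lowest, 48.3 at the median and 57.8 at the highest (Fisher's exact test, adjusted p = 0.00660). The Nr3c2 region at chr8:76908364-76908843 in the same exon was called in 8 and 1, with a fold of 34.1 to 57.9 in cerebrum and 9.09 in the cerebellum library that had it (Fisher's exact test, adjusted p = 0.0397). The cerebellum value of this Nr3c2 region lay below all 8 cerebrum values. Regions of 2210408I21Rik, Unc13b, Lnpep (an aminopeptidase of endosomes) and Lyst (a regulator of lysosomal trafficking) were also called in 8 and 1 libraries, with the same adjusted p. Their median fold in cerebrum was 60.04, 41.0, 35.2 and 31.8, and their fold in the single cerebellum library was 6.34 to 9.70. The 5 calls with 1 cerebellum library each had an adjusted p of 0.0589 to 0.0665 when a cerebellum library without the region was left out.

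The 6 regions above had a mean percentile of fold of 84.3 to 94.6 inside the cerebrum lists. The 6 named regions higher in cerebellum had 37.0 to 56.6 inside the cerebellum lists, both sets being those with the highest such percentile among the 336 and the 37. As they were picked from sets of unlike size, these values do not compare the 336 with the 37. The region of Irx3, a homeobox transcription factor, was called in 6 of 6 cerebellum and 0 of 8 cerebrum libraries, with a fold of 7.26 at the lowest, 9.82 at the median and 13.1 at the highest (Fisher's exact test, adjusted p = 0.00660). Regions of Dnajc1 (a co-chaperone of the endoplasmic reticulum), Scaf11 (a splicing factor), Ahctf1 (a nuclear pore assembly factor) and Zfp516 were also called in 6 and 0 libraries, with medians of 6.53 to 8.02. The Mmrn2 region, of an extracellular matrix gene of endothelium, was called in 6 and 1 (Fisher's exact test, adjusted p = 0.0483), and passed no longer when any cerebellum library was left out (adjusted p of 0.0547 to 0.0613). Other regions of Dnajc1, Scaf11, Ahctf1, Zfp516 and Mmrn2 were called in all 14 libraries, whereas Irx3 had 1 other region that was constant in neither tissue.

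By function, the lists below were read against 14.2% and 1.57% of the long-exon regions tested, and 7.78% and 1.87% of all regions tested. In the microtubule and membrane skeleton list 35 of 40 genes had a long internal coding exon and 34 carried a long-exon region. Of the 94 regions of this list tested, 29 were higher in cerebrum and 0 in cerebellum. Macf1 and Dst, which encode giant linkers of actin and microtubules, had 11 regions each, of which 5 and 4 were higher in cerebrum. A cerebellum library held 1 to 3 regions of Macf1 and 0 to 2 of Dst, and a cerebrum library 6 to 10 and 7 to 11, so that the tissues did not overlap. Map1b, the relative of Map1a in growing axons, had 8 regions, of which 3 were higher in cerebrum. The regions of this list had a median mean percentile of fold of 31.1 inside the lists, against 43.0 for all long-exon regions.

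Among synaptic scaffolds and release factors, 31 of 40 genes carried a long-exon region, and 19 of 59 regions tested were higher in cerebrum and 0 in cerebellum. Pclo, which encodes the active zone scaffold piccolo, had 19 regions. A cerebellum library held 0 to 10 Pclo regions with a mean of 4, a cerebrum library held 15 to 19 with a mean of 16.9, and 9 of the 19 were higher in cerebrum. Bsn, which encodes the related scaffold bassoon, had 12 regions, of which 9 were called in all 14 libraries and 0 differed between tissues. Unc13b had 13 regions in all its long exons, 5 of them higher in cerebrum. Sipa1l1 had 4, of which 1 was higher in cerebrum. The median percentile of the list was 43.1.

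Of 64 chromatin and histone modifiers, 53 carried a long-exon region, with 178 regions in all. Of the 101 regions tested 16 were higher in cerebrum and 3 in cerebellum, and 77 of the 178 (43.3%) were called in all libraries. The histone methyltransferase genes Kmt2d, Kmt2a and Kmt2c had 11, 9 and 9 regions, of which 1, 0 and 1 were higher in cerebrum, and Ankrd11 had 8, of which 1 was. The zinc finger and homeodomain factors had 135 regions in 35 of 49 genes, with 13 of 91 tested higher in cerebrum and 0 in cerebellum. Zfhx4 had 12, Hivep2, Zfhx3 and Zfp407 had 9 each, and 4 of the 9 regions of Zfp407 were higher in cerebrum.

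Nuclear receptors and their cofactors had 32 regions in 16 of 30 genes, and 3 of 16 tested were higher in cerebrum, 2 of them those of Nr3c2. Ncoa6, a coactivator, had 7 regions with 5 called in all libraries. Bcl9 had 4 and Med13 had 3, with 0 passing the test. Genes of genome maintenance and cell division had 112 regions in 30 of 40 genes, of which 21 (18.8%) were called in all libraries, and 11 of 91 tested were higher in cerebrum and 1 in cerebellum. Bod1l had 10, Mki67, a marker of proliferating cells, and Cenpf, a kinetochore gene, had 9 each, and Brca2 had 8. In Brca2 2 regions were higher in cerebrum and a cerebellum library held 0 of the 8. Genes of RNA processing had 56 regions in 22 of 44 genes, with 1 of 28 tested higher in cerebrum and 4 in cerebellum, among them 1 each of Zc3h13, a part of the m6A methyltransferase complex, and Scaf11. Ranbp2 had 8, Srrm2 had 6 and Son had 5, of which 1, 0 and 0 were higher in cerebrum. The median percentile of fold was 43.5 for chromatin modifiers, 47.7 for zinc finger and homeodomain factors, 55.6 for nuclear receptors, 32.8 for genome maintenance and 50.5 for RNA processing.

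Some tissue marker genes carried a long-exon region themselves. The region of Fezf2, a transcription factor of cortical projection neurons, was called in 8 of 8 cerebrum and 0 of 6 cerebellum libraries, and Fezf2 was 1 of the 336. The regions of Zic1 and Zic4 were called in all 14. The Barhl1 region was called in 6 cerebellum and 2 cerebrum libraries, which did not pass.

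The comparison of ages in cerebrum asks whether long-exon regions changed in the first postnatal week. The P0 cerebrum libraries had 3212, 3218, 3418 and 3223 long-exon regions and the P7 libraries 2787, 2875, 2830 and 2916. Every P7 value was below every P0 value, and the mean fell by 416 (exact permutation of library labels, two-sided, p = 0.0286, the smallest that 4 against 4 libraries allow; adjusted p = 0.0429). With lists of equal size the mean fell by 120 and with 50% coverage it fell by 748.5, with the same p in the exact test. In the same libraries the share of all regions was 14.2% to 14.7% at P0 and 15.9% to 17.2% at P7, 2.00 percentage points higher (exact permutation test, p = 0.0286, adjusted p = 0.0429).

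The rise in share came with a fall of the regions outside exons. From P0 to P7 the mean number of long-exon regions of a cerebrum library went to 87.3% of its P0 value, near the 88.8% of 3′UTR and stop codon regions, while short-exon regions went to 73.6% and intronic regions to 40.7%. Of the regions in annotated exons, long-exon regions were 19.6% ± 0.438 at P0 and 19.7% ± 0.410 at P7 (SD, n = 4 each), a difference of 0.0885 points (exact permutation test, p = 0.686). With lists of equal size the difference was 0.00777 points (exact permutation test, p = 1). Relative depth was 0.986 to 1.56 at P0 and 0.796 to 1.03 at P7, and its part in these values was not tested.

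In cerebellum the P0 libraries had 2352 and 2652 long-exon regions and the P7 libraries 2055 to 2608, and the shares were 15.7% and 16.4% at P0 and 14.6% to 17.1% at P7, which overlapped. The change in share with age differed between the tissues by 2.07 percentage points (exact permutation test that exchanged tissues inside each age, two-sided, p = 0.0190, adjusted p = 0.0429). Of exonic regions it was 0.558 points (exact permutation test, p = 0.594), and without cerebellum P0 replicate 2 it was 1.74 points (exact permutation test, p = 0.0543). Exchanging tissues assumes that they do not differ at either age. At P0 the cerebrum shares of all regions (14.2% to 14.7%) lay below both cerebellum shares. These p-values therefore do not isolate a difference in the change with age.

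**Figure D5:**
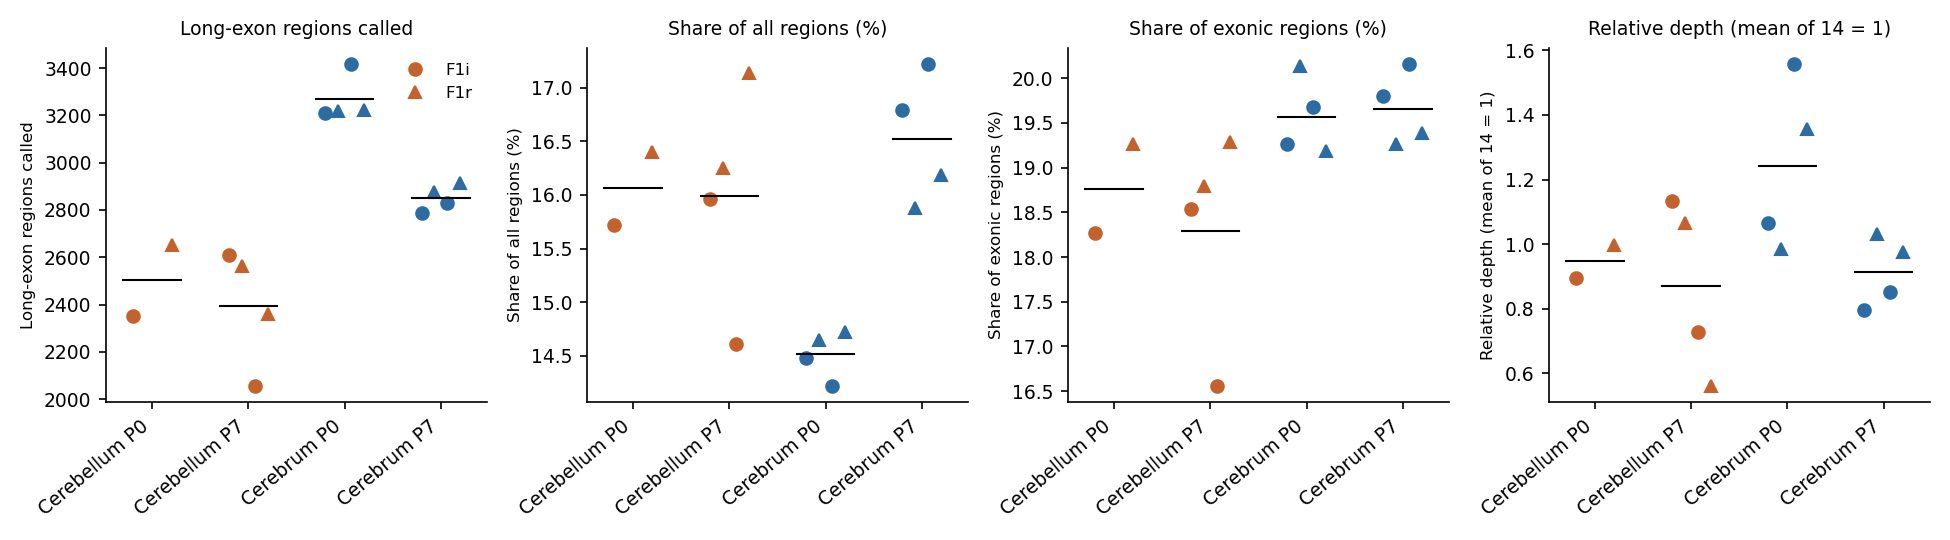
Long-exon regions per library by tissue and age. From left, their number, their share of all regions (%), their share of regions in annotated exons (%) and the relative depth of the library; points are libraries (circles F1i, triangles F1r) and lines are group means, and the axes do not start at 0. The P7 cerebrum shares of all regions (15.9% to 17.2%) lie above those at P0 (14.2% to 14.7%), while the shares of exonic regions overlap.

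Few long-exon regions were exclusive to an age. Of the 3754 called in any cerebrum library, 101 (2.69%) were called in all 4 P0 and in 0 P7 libraries, and 15 (0.400%) in all 4 P7 and in 0 P0 libraries. Over the 30237 regions of cerebrum the shares were 4.79% and 0.496%. No test per region can pass a correction with 4 against 4 libraries. With lists of equal size the counts were 34 and 21, and with 50% coverage 159 and 10.

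Of the regions exclusive to P0, the region of Bcl6, a transcriptional repressor, had the highest rank in the lists, with a fold of 8.20 at the lowest and 18.3 at the highest, and it was never called in cerebellum. That of Plcl1 was also absent from cerebellum, that of Kifc5b was called in all 6 cerebellum libraries, and that of Zfp646 in 1. Kifc5b is a kinesin gene with close copies, so its reads may be shared with them. At P7, the region of Gm19410 had a fold of 11.7 to 26.6 and was called in 1 cerebellum library, that of Il16 in 3 and that of Vgll3 in 0. The region of Serpina3n, a protease inhibitor of reactive astrocytes, was called in all 4 P7 cerebrum libraries with a fold of 8.52 to 10.7, and in 1 P0 and 4 P7 cerebellum libraries. When peaks had to cover 50% of the region, Plcl1, Kifc5b, Gm19410 and Il16 were no longer exclusive. The share of P7 minus that of P0 libraries, -100 or 100 percentage points for the regions named here, was then -75 for Plcl1, -50 for Kifc5b, 50 for Gm19410 and 0 for Il16.

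No test of the direction of the cross on long-exon regions passed the threshold of 0.05. Their share of all regions was higher in the F1r library of 5 pairs and in the F1i library of 2, with a mean difference of 0.316 ± 1.18 percentage points (SD, n = 7; exact sign-flip test over pairs, two-sided, p = 0.578, adjusted p = 0.578). The widest difference, 2.52 points, was that of the P7 cerebellum female pair, and without that pair the mean was -0.0512 points (exact sign-flip test, p = 0.875). Without the P7 cerebrum pairs, whose labels of sex are in doubt, it was 0.831 points in 5 pairs of the same direction (exact sign-flip test, p = 0.0625, the smallest that 5 pairs allow). Of the 4005 regions, 0 were found in just the library of 1 cross in 5 or more of the 7 pairs with no pair going the opposite way, a rule that 0.0648% of all regions met. At most 4 pairs went one way without a pair the other way, for 7 regions towards F1r and 1 towards F1i.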

How the data were processed

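The values are peak lists, 1 for each of the 14 IP libraries, and the 14 input libraries were left out. According to the methods, reads were aligned to mm10 with C57/PWK variant sites masked, PCR duplicates were removed, and peaks were called by the authors per library and strand. The submitters' processing notes name fastp 0.21.0, HISAT2 2.1.0, MACS2 2.1.2 and featureCounts 1.6.0. The control of each call is not given in the sources used here. The ratio deposited per peak is its fold enrichment over the local background, and the deposited −log10 p and −log10 q are those of the peak within its list. The lists hold no counts. Relative depth was the modal local background, solved from the authors' fold and p (97.9% to 100% of pileups were whole within 0.05), over its mean. Absolute depth is unknown.

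Coordinates are GRCm38, exons those of GENCODE vM21 basic, and sequences RefSeq GRCm38.p6, so motifs are those of the C57 reference. The authors' annotation release differed. A long internal exon in any basic transcript sufficed. A region counted as called in a library that had at least 1 peak within it, and the strongest peak gave its summit and fold. Regions were tested with Fisher's exact test over the whole table, libraries with exact permutation and sign-flip tests, with Benjamini-Hochberg adjustment, in Python 3.11.15 with SciPy 1.17.1, and tested on simulated data. Wilson intervals used statsmodels 0.14.6 at 95%. Named are the 10 regions of all libraries with the highest mean percentile of fold, 6 per tissue direction and 4 per age by the same measure, the 6 exons with most regions, up to 4 genes per list with most regions, and the 2 regions on each side of 400 nt. Marker genes were named as checks of the tissues, and values of some are not reported here. The members, lists and rules were chosen with earlier results of these data known.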

Additional observations from a re-analysis of the deposited data

Results flagged for a closer look

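Among the 30 combinations of a library group and a measure that were checked for a library apart from the rest, 3 stood out, and chance gives about 1 in 20. The P0 cerebrum female F1i library had 3418 long-exon regions, against 3212 to 3223 in the other P0 cerebrum libraries, and it was the deepest library (relative depth 1.56). In the P0 cerebrum male F1i library 4.75% of long-exon summits lay within 100 nt of an exon end, against 4.99% to 5.01% in the other libraries of its group. In the P7 cerebellum female F1r library the density of regions in long over short internal exons was 37.6, against 22.0 to 27.5 in the other cerebellum libraries. This was the shallowest library (relative depth 0.560) and had 229 short-exon regions, the fewest of all 14, and the part of depth in the ratio was not tested.

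The change in the share of long-exon regions from P0 to P7 differed between cerebrum and cerebellum by 2.07 percentage points (exact permutation test, p = 0.0190). It was not past the threshold as a share of exonic regions. The test exchanged tissues inside each age and does not isolate a difference in the change with age.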

How the results depend on the processing

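Results were recomputed under other thresholds on peaks, placements and exon lengths and with each library left out, and the comparisons by tissue, age and cross also with equal list sizes. The tests on the number of regions by tissue and age, on GGAC, on fold and on distance from exon ends kept their direction and their side of the threshold under every alternative run for them, but the GGAC difference from short exons was 3.06 points with 600 nt in place of 10.4. The share by tissue changed sign from -0.495 points to 1.16 as a share of exonic regions, 1.16 with equal list sizes, 0.820 with 50% coverage and 0.530 in P7 libraries only. The rise in share with age in cerebrum was 0.0885 points of exonic regions and 0.00777 with equal list sizes. Its difference between tissues was 0.558 of exonic regions, 1.66 of coding regions in internal exons, 0.167 with equal list sizes and 1.94 with 50% coverage, none past the threshold. The density ratio was 36.0 with a minimum of 300 nt, 11.3 with 600 nt and 20.7 when placed by the summit. The share called in all libraries was 38.97% with 300 nt, 42.9% with 600 nt and 16.3% with 50% coverage. Regions exclusive to P0 numbered 34 with equal list sizes and 159 with 50% coverage, regions higher in cerebellum 72 with equal list sizes, and 1 cross-directed region appeared with equal list sizes, with 50% coverage and with a −log10 q of at least 3. The causes were not tested.

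Leaving out 1 library gave 202 to 408 regions differing between tissues, 187 to 369 higher in cerebrum and 15 to 44 in cerebellum, fewer than 336 and 37 only without a cerebellum library. It gave 41.2% to 44.9% called in all, 1.62 to 2.46 points for the age difference between tissues (not past the threshold only without cerebellum P0 replicate 2), 101 to 140 and 15 to 19 regions exclusive to P0 and P7, and -0.0512 to 0.540 points for the cross (negative only without either library of the P7 cerebellum female pair, -0.0512 in both). The labels number no replicates, so a block by replicate number could not be fitted. With the tissues paired by age, labelled sex and cross, an alternative chosen after seeing the data, the number differed by 542 (p = 0.0313) and the share by -0.145 points (p = 0.844) in exact sign-flip tests over 6 pairs. The labels do not say that paired libraries share an animal. Of the named regions, Ahctf1, Mmrn2 and Unc13b did not pass the tissue test with 50% coverage, and Plcl1, Kifc5b, Gm19410 and Il16 were not exclusive to an age.

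The lists hold peaks only, so a region missed in a shallow library, or at low expression, cannot be told from an unmethylated one.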
